A study of Mus musculus with 5 samples.

Results

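Ccr2 and 7 other genes of monocyte and macrophage recruitment and growth were followed in mouse bone marrow-derived macrophages treated with IL-4, with or without the PHGDH inhibitor CBR-5884. They are 8 of the 49246 genes with a value in every library, and were listed by name: the chemokine receptors Ccr2, Ccr1, Cx3cr1 and Cxcr4, the monocyte surface protein Ly6c2, the VEGF receptor Flt1, and the growth factor receptors Csf1r and Csf2ra. The genes were chosen by their role and with their summed FPKM in the contrast of CBR-5884 with solvent known, so the values of the 8 genes in that contrast are given as a description. The fit over all genes also returns calls for them, which are stated once and from which nothing is read. Each value is the sum of FPKM (fragments scaled to transcript length and to the size of the library) over the transcripts of the gene.

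All 5 libraries came from wild type C57BL/6 macrophages, differentiated from marrow for 6 days with CSF1 or L929-conditioned medium, and all received IL-4 at 10 ng/ml for 24 h. Before IL-4, 3 cultures were given 30 µM CBR-5884 (replicates 3, 4 and 5) and 2 were given solvent (replicates 3 and 5). The cells were 96% positive for F4/80 and CD11b before treatment, as the labels report. Nothing in the labels says whether replicates were separate animals or cultures, so a p-value here speaks only to differences among these 5 libraries, whose spread can be technical. Coverage divided by FPKM implied a depth of 30227068 to 30698831 fragments for the CBR-5884 libraries and of 28314193 to 28853377 for the solvent libraries.

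Blood monocytes enter tissue by following chemokines. CCR2, which binds CCL2 and CCL7, releases them from the marrow and leads them to inflamed sites, and CCR2 and Ly6C fall as the cells mature into macrophages. CX3CR1 marks patrolling monocytes and many resident macrophages, and CXCR4 holds cells in the marrow through CXCL12. CSF1R is the receptor for CSF1 and IL-34 on which macrophages depend, and CSF2RA is the ligand-binding chain of the GM-CSF receptor. FLT1 (VEGFR1) is a tyrosine kinase that binds VEGF-A, VEGF-B and PlGF and mediates monocyte migration towards them. A truncated FLT1 that ends before the membrane is secreted and captures the same ligands.

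Of the 8 genes 6 were expressed highly enough to be fitted, and in 2 of these, Ccr2 and Flt1, the groups did not overlap. Over all 10769 genes fitted, 41.5% had groups that did not overlap in either direction. Both were lower with CBR-5884, at a ratio of mean FPKM of 0.450 for Ccr2 and 0.428 for Flt1. Ccr1, Cxcr4, Csf1r and Csf2ra had ratios between 0.878 and 1.14, with values that overlapped between the groups. Cx3cr1 and Ly6c2 were near the limit of detection in every library. In bulk RNA, fewer cells of a type and less RNA per cell cannot be told apart.

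**Figure D1:**
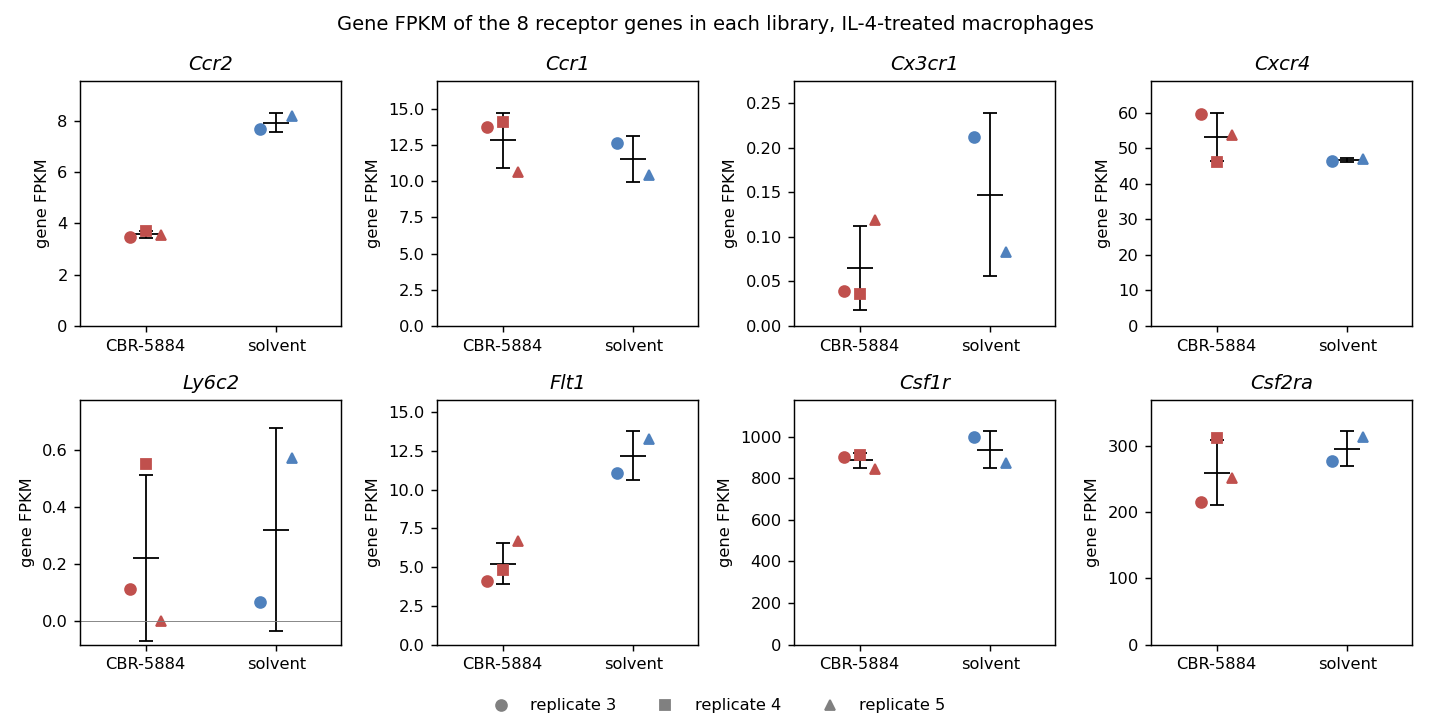
Gene FPKM (linear y axis, one scale per gene) of the 8 genes in the 3 CBR-5884 and the 2 solvent libraries; symbols mark replicate numbers, horizontal bars the group mean and whiskers the SD. The solvent values of Ccr2 (7.66 and 8.19) and Flt1 (11.1 and 13.3) lie above every CBR-5884 value, and the other 6 panels overlap.

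By FPKM, which allows for transcript length, the order under solvent was Csf1r at 937 ± 88.2 (SD, n = 2), Csf2ra at 297 ± 26.0, Cxcr4 at 46.7 ± 0.51, Flt1 at 12.2 ± 1.57, Ccr1 at 11.5 ± 1.58 and Ccr2 at 7.93 ± 0.37. Flt1 and Ccr1 overlapped there and could not be ranked. With CBR-5884 the order was Csf1r at 885 ± 34.2 (SD, n = 3), Csf2ra at 260.5 ± 49.0, Cxcr4 at 53.2 ± 6.79, Ccr1 at 12.8 ± 1.89, Flt1 at 5.22 ± 1.31 and Ccr2 at 3.57 ± 0.13. Here Flt1 lay below Ccr1, and above Ccr2, without overlap. Ly6c2 and Cx3cr1 came last in each group and overlapped with each other.

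Ccr2 (chromosome 9, 124101950 to 124113557, plus strand, GRCm38) was at 3.45, 3.71 and 3.54 FPKM in CBR-5884 replicates 3, 4 and 5, and at 7.66 and 8.19 in solvent replicates 3 and 5. The CBR-5884 libraries lay close to each other and well below either solvent library. The estimates rest on 375, 416 and 408 fragments against 817 and 900, as implied by the coverage. Some may stem from another gene, with which Ccr2 shares 1.16% of its distinct stretches of 75 bases, the read length. The level of that gene implied 93.8, 155.5 and 111.8 fragments there against 116.3 and 119.8. With all of these taken off, the ratio of mean Ccr2 FPKM was 0.365 in place of 0.450. How many were counted in Ccr2 is not known. The log2 fold change of Ccr2 was -0.97 (SE 0.07) on the log2(FPKM + 1) scale. It stayed between -1.13 and -0.59 over 18 other ways of processing, the smaller one with a pseudocount of 5. Several of these ways, such as the filters and the variance trend, cannot alter a fold change.

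The lower level of Ccr2 was not held by a single transcript. Of 4 reference transcripts 3 had a value above 0, and these 3 carry an identical coding sequence of 373 codons and differ in their untranslated ends. The transcript made of a single exon of 3515 nt was at 2.31, 2.17 and 2.25 FPKM under CBR-5884 and at 5.14 and 6.83 under solvent. The transcript of 2 exons was at 0.29, 0.56 and 0.56 FPKM and at 0.98 and 1.36. Neither transcript overlapped between the groups. The transcript spliced over 3 exons was at 0.86, 0.97 and 0.73 FPKM, at 1.55 in solvent replicate 3, and listed at 0 in solvent replicate 5, although the gene total there was the highest of all. The sum over transcripts was thus steadier than its division among them.

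Flt1 (chromosome 5, 147561604 to 147726011, minus strand) was at 4.14, 4.85 and 6.68 FPKM under CBR-5884 and at 11.1 and 13.3 under solvent. Every CBR-5884 value was below every solvent value, but the spread within each group was wider than for Ccr2. On the log2(FPKM + 1) scale the fold change was -1.10 (SE 0.20), and -1.26 to -0.76 over the 18 alternatives. Coverage implied 859 to 1387 fragments with CBR-5884 and 2178 to 2570 under solvent.

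Flt1 transcripts were of 2 kinds by their 3′ end, a long form that encodes the whole receptor in 1333 codons and a short form of 688 codons. They share the first 1972 coding bases. The short form then reads on into the intron and reaches a stop codon after another 95 bases, where the long form is spliced to the next exon. The lines show the point at which they part: the last 30 shared coding bases are in lower case (chr5:147639225-147639254, minus strand), and capitals mark what follows in each form, at chr5:147634429-147634523 in the long form and chr5:147639130-147639224 in the short form, which closes with its stop codon.
Flt1 long form: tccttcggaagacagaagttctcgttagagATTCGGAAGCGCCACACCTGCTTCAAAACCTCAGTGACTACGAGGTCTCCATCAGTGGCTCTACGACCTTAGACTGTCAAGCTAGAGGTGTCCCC
Flt1 short form: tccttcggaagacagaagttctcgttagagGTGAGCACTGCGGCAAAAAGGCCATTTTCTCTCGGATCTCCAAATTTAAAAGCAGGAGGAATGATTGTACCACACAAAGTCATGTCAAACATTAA

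Both forms were lower with CBR-5884. The long form was at 3.18, 3.77 and 5.22 FPKM and, under solvent, at 9.05 and 10.8, a ratio of means of 0.409. The short form, which encodes the secreted protein, was at 0.96, 1.07 and 1.46 FPKM and at 2.03 and 2.52, a ratio of 0.511. Neither form overlapped between the groups. The short form made up 23.2%, 22.1% and 21.8% of Flt1 FPKM under CBR-5884 and 18.3% and 19.0% under solvent, so its share was higher by 3.75 percentage points. That direction depended on transcripts that Cufflinks assembled from the reads: with reference transcripts alone the share was 0%, 22.1% and 21.8% against 25.1% and 23.2%. CBR-5884 replicate 3 lists the reference short form at 0 and carries an assembled one, and the assembled Flt1 transcripts of the solvent libraries are all of the long form.

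**Figure D2:**
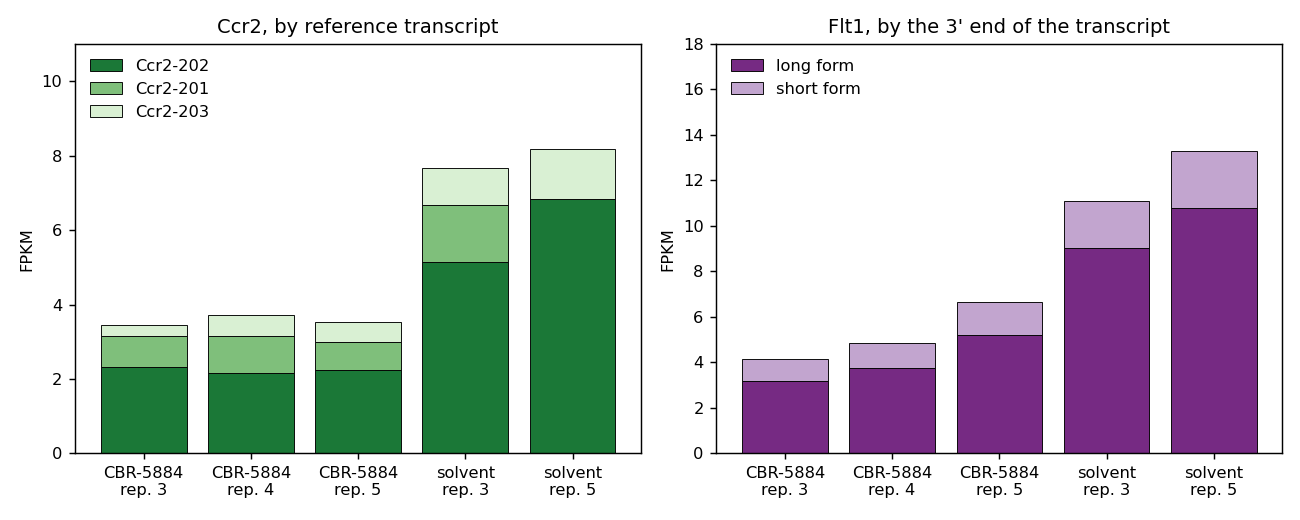
FPKM (y axis) of Ccr2 by reference transcript (left) and of Flt1 by long and short form (right), stacked for each of the 5 libraries. The single-exon transcript makes up most of Ccr2 in every library, the transcript of 3 exons is absent from solvent replicate 5, and the long form of Flt1 is the larger share throughout.

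Endothelial cells are the classic site of Flt1 expression, and their markers were measured beside it. Of 8 endothelial genes, Emcn, Cldn5 and Robo4 were listed at 0 in all 5 libraries, and Cdh5, Tek and Tie1 did not exceed 0.07 FPKM. Pecam1, which leukocytes also express, was at 1.74, 2.42 and 1.73 FPKM against 2.59 and 2.48, lower without overlap like Flt1 (log2 fold change -0.26, limma adjusted p = 0.383). The summed level was 28.7 to 31.3 FPKM under CBR-5884 and 30.0 to 35.6 under solvent, nearly all of it Vwf. Kdr, the other main VEGF receptor of endothelium, was at 0.84, 0.51 and 0.50 FPKM under CBR-5884 and at 0.34 and 0.36 under solvent, the opposite order to Flt1. The VEGF co-receptor Nrp1 was at 90.8, 86.0 and 100.0 FPKM against 77.4 and 77.0 (log2 fold change 0.25, SE 0.08, limma adjusted p = 0.201). Assembled transcripts held 86.8% of its FPKM. With reference transcripts alone Nrp1 was at 13.2, 0 and 26.2 FPKM against 17.6 and 0, with groups that overlapped (log2 fold change 0.75).

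Ccr1 (chromosome 9, 123962124 to 123968692, minus strand), a receptor for CCL3 and CCL5, has 1 reference transcript. It was at 13.7, 14.1 and 10.7 FPKM under CBR-5884 and at 12.6 and 10.4 under solvent. Replicate 5 was the lowest of each group, and the groups overlapped. Its log2 fold change was 0.14 (SE 0.15). It was positive in all 18 alternatives (0.01 to 0.27), but several of these, such as the filters and the variance trend, cannot alter it. Ccr1 and Ccr2 lie in one cluster of chemokine receptor genes on chromosome 9, in which Ccr3 stayed at 0.29 to 0.94 FPKM, Ccr1l1, Xcr1 and Cxcr6 at or below 0.17, and Ccr9 was listed at 0.

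Cxcr4 (chromosome 1, 128588199 to 128592293, minus strand) was at 59.7, 46.2 and 53.7 FPKM under CBR-5884 and at 46.4 and 47.1 under solvent. CBR-5884 replicate 4 lay below both solvent libraries and the other CBR-5884 libraries above them. The log2 fold change of 0.18 (SE 0.12) turned to -0.40 with reference transcripts alone, at 29.9, 15.7 and 37.2 FPKM against 37.7 and 31.9. Assembled transcripts held 18.7% to 66.0% of Cxcr4 FPKM per library, and all 7 of them end within 2 bases of the reference 3′ end. No direction can be given for Cxcr4.

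Csf1r (chromosome 18, 61100598 to 61132149, plus strand) was the most abundant of the 8 genes, at 899.8, 910.2 and 846.5 FPKM under CBR-5884 and at 998.9 and 874.2 under solvent. The solvent libraries enclosed 2 of the 3 CBR-5884 values. Csf1r had a log2 fold change of -0.08 (SE 0.08), which was 0.02 without solvent replicate 3. All of it fell on 1 reference transcript with 95791 to 111544 implied fragments per library, and the second reference transcript was listed at 0. Its exons overlap those of Hmgxb3 on the opposite strand by 873 nt, and Hmgxb3 was listed at 0 in every library. Whether the estimates used the strand of the reads is not stated in the labels.

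Csf2ra (chromosome 19, 61223957 to 61228429, minus strand) was at 216.2, 313.1 and 252.2 FPKM under CBR-5884 and at 278.2 and 315.1 under solvent. CBR-5884 replicate 4 and solvent replicate 5 were the highest, and they alone carry an assembled transcript of Csf2ra, at 91.9 and 84.8 FPKM. On the reference transcript the values were 216.2, 221.2 and 252.2 FPKM against 278.2 and 230.2. Csf2ra had a log2 fold change of -0.20 (SE 0.18), and the groups overlapped. The fold change was negative in all 18 alternatives (-0.34 to -0.08), some of which cannot alter it. The signalling partner chain Csf2rb was at 243.7, 260.1 and 223.5 FPKM under CBR-5884 and 239.1 and 203.4 under solvent, and Csf2rb2, the IL-3-specific chain, at 157, 169.6 and 149.7 against 152.7 and 133.4 (limma adjusted p = 0.52 and 0.414).

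Cx3cr1 (chromosome 9, 119901616 to 120069879, minus strand) was at 0.04, 0.04 and 0.12 FPKM under CBR-5884 and at 0.21 and 0.08 under solvent, from 3 to 23 implied fragments per library. Ly6c2 (chromosome 15, 75108158 to 75111970, minus strand) was at 0.11 and 0.55 FPKM in CBR-5884 replicates 3 and 4, listed at 0 in replicate 5, and at 0.07 and 0.57 under solvent, from at most 12 implied fragments. Ly6c2 is uncertain as well because 20.7% of its distinct stretches of 75 bases, the read length, also occur in Ly6c1, whose coding sequence is 97.7% identical. Ly6c1 was listed at 0 in 4 libraries and at 0.07 FPKM in solvent replicate 3. At this depth no difference was detectable in these genes. Elsewhere in the Ly6 family, Ly6e was at 442.9 to 621.2 FPKM under CBR-5884 and at 536.3 to 579.2 under solvent (limma adjusted p = 0.986). Ly6a was at 2.73 to 7.69 FPKM against 3.19 to 5.78, and Ly6i had means of 1.01 and 1.04 (limma adjusted p = 0.769 and 0.924).

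Of the 8 genes, 6 had a mean of at least 1 FPKM and entered the fit over 10769 genes; Cx3cr1 and Ly6c2 did not. In that fit limma called 24 genes at an adjusted p below 0.05, which is 0.223% of those tested, with 19 lower (0.176%) and 5 higher (0.0464%) under CBR-5884. Ccr2 was among the 19, and the other 5 tested receptor genes were not called. Since the list was chosen with this result known, the count carries no weight. Ccr2 lost its call when any 1 library was left out and with the replicate number as a block. The call was also lost with no filter on low values, with a mean FPKM of at least 5, and with reference transcripts only or the most abundant one. Groups that did not overlap were common: 24.9% of tested genes were lower in that way and 16.6% higher, beside 2 of the 6 receptor genes. Scaling moved the balance of directions: of genes with an unadjusted limma p below 0.05, 36.9% were higher, and 54.7% on the TPM scale. The 6 had a median log2 fold change of -0.14, 4 negative and 2 positive, against a median of -0.03 over all genes tested, 55.7% of which were negative.

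No ligand of these receptors passed the test. Of 18 ligand genes 13 were tested; 11 had a negative log2 fold change, 2 a positive one, and the median was -0.34, beside 55.7% negative and a median of -0.03 over all genes tested. Limma called 0 of the 13, and 3 had an unadjusted p below 0.05, beside 19.6% of all genes tested. Those 3 were Ccl2, Ccl6 and Vegfa. In 6 of the 13 the CBR-5884 libraries all lay below both solvent libraries, and in none above, beside 24.9% and 16.6% of all genes tested. Of these 6, Ccl4, Ccl7 and Ccl9 overlapped between the groups with reference transcripts alone.

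Ccl2, the main ligand of CCR2, was at 3.80, 4.24 and 4.93 FPKM under CBR-5884 and at 7.82 and 10.1 under solvent. The groups did not overlap (log2 fold change -0.90, SE 0.15, limma adjusted p = 0.122). With reference transcripts alone its solvent values were 4.95 and 5.70 FPKM and the log2 fold change was -0.25. Ccl7, the second CCR2 ligand, was at 4.21, 4.46 and 3.76 FPKM against 4.86 and 7.42 (log2 fold change -0.45, SE 0.18, limma adjusted p = 0.273). With reference transcripts alone Ccl7 was at 0, 4.46 and 3.76 FPKM against 4.86 and 2.82, and the groups overlapped. Ccl8, a further monocyte attractant, had means of 0.80 ± 0.62 (SD, n = 3) and 1.41 ± 0.30 FPKM (SD, n = 2; limma adjusted p = 0.466), and Ccl12 did not exceed 0.23.

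Among ligands of CCR1, Ccl6 was at 195, 153 and 168 FPKM under CBR-5884 and at 303 and 333 under solvent. Its groups lay far apart in relation to their spread (log2 fold change -0.89, SE 0.12, limma adjusted p = 0.101), and all of it was on reference transcripts. Ccl9 was at 209.9, 249.1 and 265.1 FPKM against 278.4 and 338.1 (log2 fold change -0.35, SE 0.14, limma adjusted p = 0.276), and with reference transcripts alone the groups overlapped (log2 fold change -0.18). Ccl3 had means of 8.27 and 9.46 FPKM and overlapped between the groups, and Ccl4, a related chemokine, was at 4.52, 2.87 and 4.01 against 5.88 and 5.05 (limma adjusted p = 0.61 and 0.283). The log2 fold change of Ccl4 turned from -0.44 to 0.18 with reference transcripts alone. Ccl5 was at 26.0, 23.6 and 48.2 FPKM against 23.0 and 24.5, high in CBR-5884 replicate 5 alone (limma adjusted p = 0.583).

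Vegfa, a ligand of FLT1, was at 8.89, 8.75 and 10.1 FPKM under CBR-5884 and at 12.4 and 11.4 under solvent (log2 fold change -0.34, SE 0.08, limma adjusted p = 0.162), with -0.85 on reference transcripts alone. Vegfb was at 10.6, 8.67 and 7.86 FPKM against 9.99 and 10.9 (limma adjusted p = 0.462), and Pgf, which encodes PlGF, did not exceed 0.11. Vegfa thus did not overlap between the groups and Vegfb did. Csf1 was at 7.69, 7.46 and 6.40 FPKM against 7.91 and 5.37 (limma adjusted p = 0.734). Il34 stayed at or below 0.14 FPKM, Csf2, which encodes GM-CSF, was listed at 0 in all libraries, and Cx3cl1 stayed between 0.19 and 0.52. Cxcl12 was at 1.05, 1.91 and 0.68 FPKM against 1.41 and 1.30, and Mif, a further CXCR4 ligand, at 79.7, 83.4 and 80.5 against 81.8 and 92.3 (limma adjusted p = 0.82 and 0.476).

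**Figure D3:**
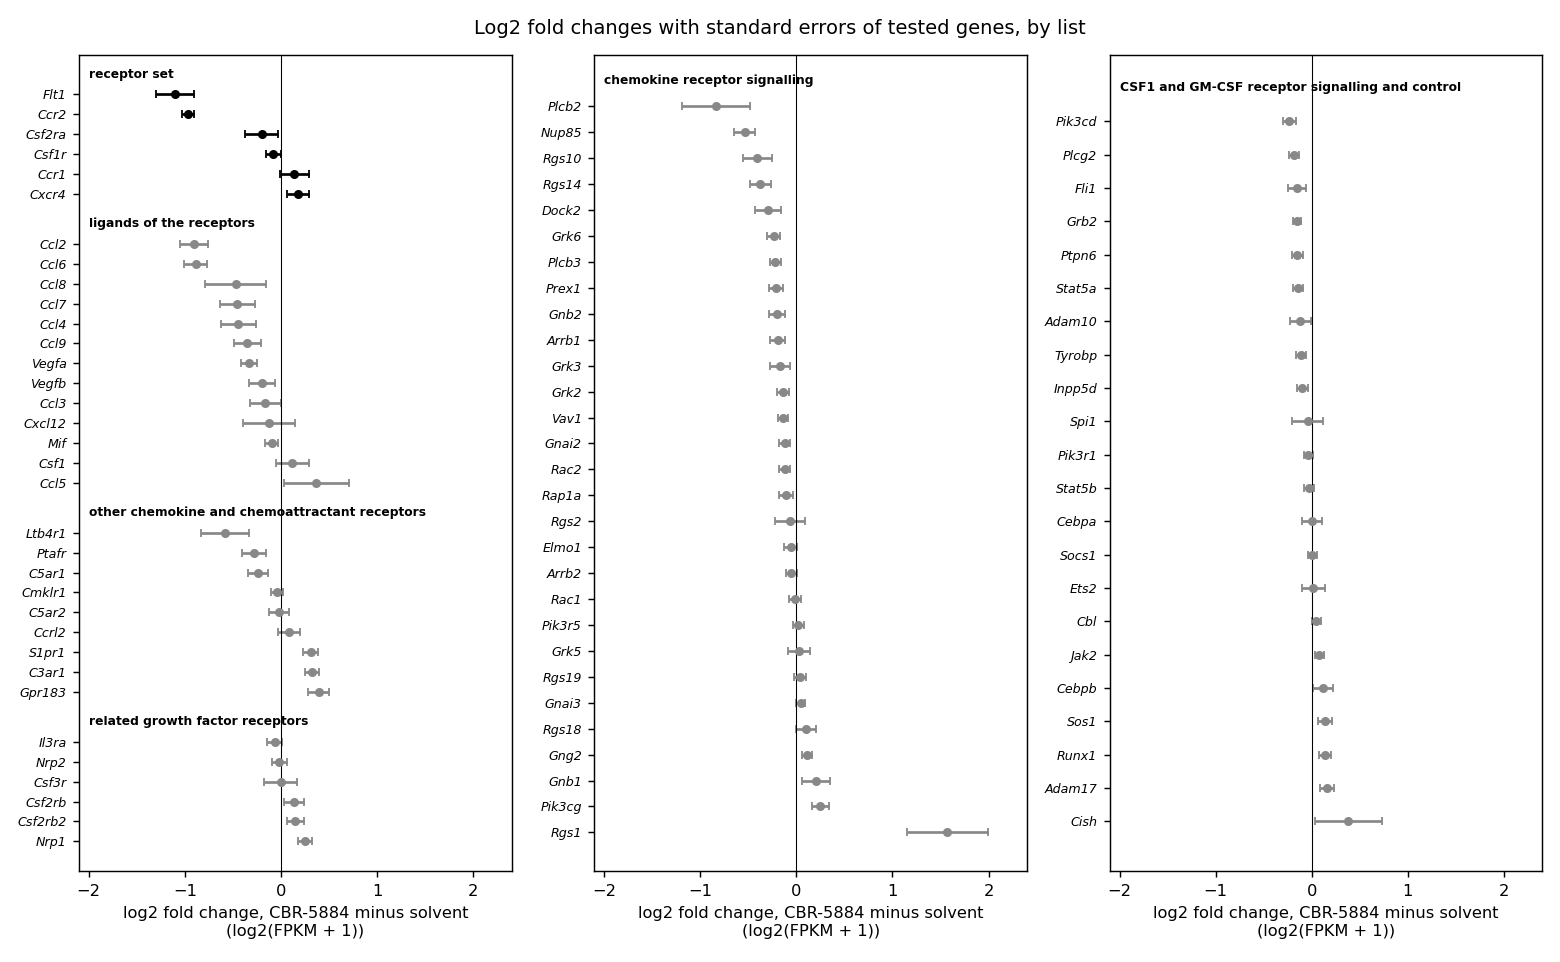
Log2 fold change on the log2(FPKM + 1) scale (x axis, CBR-5884 minus solvent) with limma's standard error for the tested genes, the receptor set in black and the gene lists around it in grey. Flt1 and Ccr2 lie farthest left among the receptors, 11 of 13 ligands lie left of 0, and Rgs1 lies farthest right; 1 gene of the chemoattractant receptor list is not drawn.

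Other receptors for chemoattractants had log2 fold changes of both signs. Of 31 genes 10 were tested, 6 negative and 4 positive, with a median of -0.03, the same as that of all genes to 2 decimals. Limma called none, and 3 had an unadjusted p below 0.05, all of them higher, beside 780 higher and 1334 lower among the 10769. They were Gpr183, C3ar1 and S1pr1. The log2 fold change of S1pr1 turned from 0.31 to -0.18 with reference transcripts alone. Ltb4r1, a leukotriene B4 receptor, was at 2.25, 3.10 and 3.17 FPKM against 3.49 and 6.23 (limma adjusted p = 0.302). Gpr183, an oxysterol receptor that guides immune cells, was at 9.20, 9.67 and 8.11 FPKM against 7.20 and 6.04 (log2 fold change 0.39, SE 0.11, limma adjusted p = 0.179). C3ar1, the receptor for complement C3a, was at 336.6, 296.8 and 309.5 FPKM against 243.1 and 259.2 (log2 fold change 0.32, SE 0.07, limma adjusted p = 0.146). Of 13 related growth factor receptors 6 were tested, with a median of 0.06 and none called. Of the 6, 1 had an unadjusted limma p below 0.05, Nrp1, beside 19.6% of all genes tested.

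Genes that carry the signal of chemokine receptors showed a median of -0.12 on the log2 scale over 29 tested of 31, with 20 negative and 9 positive, beside 55.7% negative over all genes tested. Limma called none, and at an unadjusted p below 0.05 there were 7 lower and 2 higher, beside 1334 lower and 780 higher among the 10769. Rgs1, which shuts off signalling from chemokine receptors such as CXCR4, was at 115.8, 52.5 and 96.4 FPKM under CBR-5884 and at 35.8 and 21.1 under solvent. Its groups did not overlap but varied widely (log2 fold change 1.57, SE 0.42, limma adjusted p = 0.177), and on reference transcripts alone the log2 fold change was 0.44. Nup85, whose product FROUNT binds the tail of CCR2, was at 10.6, 8.93 and 8.88 FPKM against 13.1 and 15.3 (log2 fold change -0.54, SE 0.11, limma adjusted p = 0.138), and -0.25 with reference transcripts alone. Plcb2, a phospholipase downstream of these receptors, was at 9.97, 9.75 and 8.94 FPKM against 11.6 and 26.9 (limma adjusted p = 0.295). Solvent replicate 5 was far above the other libraries: without solvent replicate 3 Plcb2 was called (log2 fold change -1.40, limma adjusted p = 0.0395), and with reference transcripts alone the log2 fold change was -0.08.

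All 22 genes of CSF1 and GM-CSF receptor signalling and control were tested, 12 negative and 10 positive, with a median of -0.03. None was called by limma, and 4 had an unadjusted p below 0.05, all lower, beside 1334 lower and 780 higher among the 10769. Spi1, the factor PU.1 that drives Csf1r, was at 166.9, 238.2 and 199.1 FPKM against 206.5 and 203.9, a gene named after its values were seen (limma adjusted p = 0.9), and its log2 fold change turned from -0.04 to 0.04 with reference transcripts alone. Cish, a feedback inhibitor induced by STAT5, was at 57.8, 40.4 and 80.4 FPKM against 35.2 and 54.3 (limma adjusted p = 0.592), and its log2 fold change of 0.38 turned to -0.06 with reference transcripts alone. Its exons overlap Gm17041 on the opposite strand by 479 nt. Pik3cd was at 26.8, 29.1 and 30.3 FPKM against 33.9 and 33.9, and Plcg2 at 22.3, 23.3 and 23.2 against 27.1 and 25.3 (limma adjusted p = 0.186 and 0.191). The adaptor Grb2 was called with reference transcripts alone (log2 fold change 2.31, limma adjusted p = 0.000348) but had a log2 fold change of -0.15 over all its transcripts.

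Macrophage markers were abundant throughout, and markers of circulating monocytes ranged from low to abundant. All 10 mature macrophage markers were tested, with a summed level of 9823 to 10054 FPKM against 8966 to 9318, mostly Lgals3. Of the 10, 4 were higher and 3 lower without overlap, beside 16.6% and 24.9% of all genes tested. The lower ones were Maf, Cd14 and Fcgr1, and limma called none. Adgre1, which encodes F4/80, was at 299.4 to 338.4 FPKM under CBR-5884 and at 306.6 and 312.6 under solvent. The 11 classical monocyte markers summed to 8664 to 11727 FPKM against 10254 to 12237, mostly Lyz2, while Vcan and F13a1 stayed at or below 0.57 FPKM in every library. S100a4 was abundant, with means of 947 and 947 FPKM, and so was S100a6, with means of 612 and 749. Fn1 was at 56.5, 76.1 and 46.5 FPKM against 133.6 and 115.5 (limma adjusted p = 0.139). Of 6 tested classical markers 5 had a negative log2 fold change and 1 a positive one, with a median of -0.23. Without overlap 2 of them, Fn1 and S100a6, were lower and 1, Gpr141, was higher. The 9 non-classical markers summed to 955.4 to 1012 FPKM against 789.5 to 831.9, mostly Cd9. Of 5 tested non-classical markers 3 had a negative log2 fold change and 2 a positive one, with a median of -0.11. Pou2f2 (means 1.46 and 2.30 FPKM) and Spn (1.87 and 2.29) were lower without overlap, and 1 tested gene, Cd9, was higher. Neutrophil markers summed to 94.1 to 103.6 FPKM against 65.4 to 81.6, mostly Mmp8 (means 85.5 and 56.2), with Mpo at most 0.08 and Elane at most 0.06. Some other neutrophil genes had the opposite order. Ngp had means of 0.29 and 1.22 FPKM and Ltf of 0.11 and 0.57, and Camp was listed at 0 in every CBR-5884 library and at 0.34 and 0.20 under solvent. S100a9 had means of 1.28 and 5.92 with groups that overlapped. S100a8 had the order of Mmp8, with means of 9.96 and 8.54 FPKM, and overlapped as well. Lymphocyte markers summed to at most 0.41 in any library. Stroma markers summed to 21.8 to 35.2 FPKM against 33.9 to 34.1, and mast cell and basophil markers to at most 1.34. The 3 tested stroma genes had negative log2 fold changes, with a median of -0.42. Col1a1 was lower without overlap (means 5.24 and 8.01 FPKM), while Col1a2 and Acta2 overlapped between the groups. Dendritic cell markers summed to 461.5 to 570.7 FPKM against 591.1 to 609.2, mostly Itgax. Itgax overlapped between the groups, at 327.7, 432.0 and 380.2 FPKM against 425.2 and 422.8. Of 4 tested dendritic genes 3 had a negative log2 fold change and 1, Tcf4, a positive one (means 14.6 and 11.9). Zbtb46, too low to be tested, had means of 0.49 and 0.94. The dendritic sum was thus lower in every CBR-5884 library, although Itgax overlapped. The macrophage, non-classical monocyte and neutrophil sums, carried by Lgals3, Cd9 and Mmp8, were higher. The part of these cell types in the results was not tested.

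The genes whose values most resembled those of Ccr2 over the 5 libraries, by Pearson's r of log2(FPKM + 1) among 10315 tested genes above 0 in every library, were Gins3, Ifngr1, Ccnb1, Baz2a and 2310022B05Rik (r = 0.999, 0.999, 0.999, 0.999 and 0.998). This is a description over 5 libraries, which did not separate by group over all tested genes. Solvent replicate 3 had r = 0.928 with CBR-5884 replicate 3 and 0.926 with solvent replicate 5. Ccnb1, the mitotic cyclin, was at 0.56, 0.67 and 0.63 FPKM under CBR-5884 and at 1.57 and 1.72 under solvent (limma adjusted p = 0.132). Ifngr1, a chain of the interferon gamma receptor, was at 104.4, 107.3 and 105.5 FPKM against 128.9 and 130.1 (limma adjusted p = 0.101), and on reference transcripts alone its -0.29 (log2) became 0.38. Gins3, Baz2a and 2310022B05Rik differed by 0.20 or less on the log2 scale. Flt1 ranked 514 in likeness to Ccr2 (r = 0.943), and Ccr1 and Cxcr4 had negative r.

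Promoter sequence was compared for the 7 of the 8 genes that have a window in RefSeq's GRCm38.p6 table, Csf1r aside. The 7 genes have 8 windows, 2 of them of Ly6c2. Each runs from 250 bases before the start to 50 after it. Searched on both strands, TGACGTCA, the element bound by CREB and ATF factors, occurred in the windows of Flt1 and Csf2ra, at 81 and 92 bases before the start. It is found in 1.79% of the 32851 windows in the table. The lines show 30 bases around it with the element in capitals, on the minus strand at chr5:147726074-147726103 for Flt1 and chr19:61228492-61228521 for Csf2ra.
Flt1: gggggacccctTGACGTCActggaaggagg
Csf2ra: cccgcccccggTGACGTCAccgggccccac

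Of these genes Flt1 was lower without overlap and Csf2ra overlapped between the groups. Assembled Flt1 transcripts of CBR-5884 replicate 3 and of both solvent libraries began upstream of the element, between 147726225 and 147726391. The GC box GGGCGG was in the windows of Csf2ra, Cxcr4 and Flt1 (35.7% of all windows) and TATAAA in those of Cxcr4 and Flt1 (13.6%). The PU.1 word GAGGAAGT was in that of Ly6c2 alone (3.20%). The paired sites at the spacing STAT6 favours (6.95%), TTCNNNGAA of STAT5 (8.30%), the antioxidant response core TGACNNNGC (12.4%) and the AP-1 word TGANTCA (7.81%) were in none of the windows of these 7 genes.

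**Figure D4:**
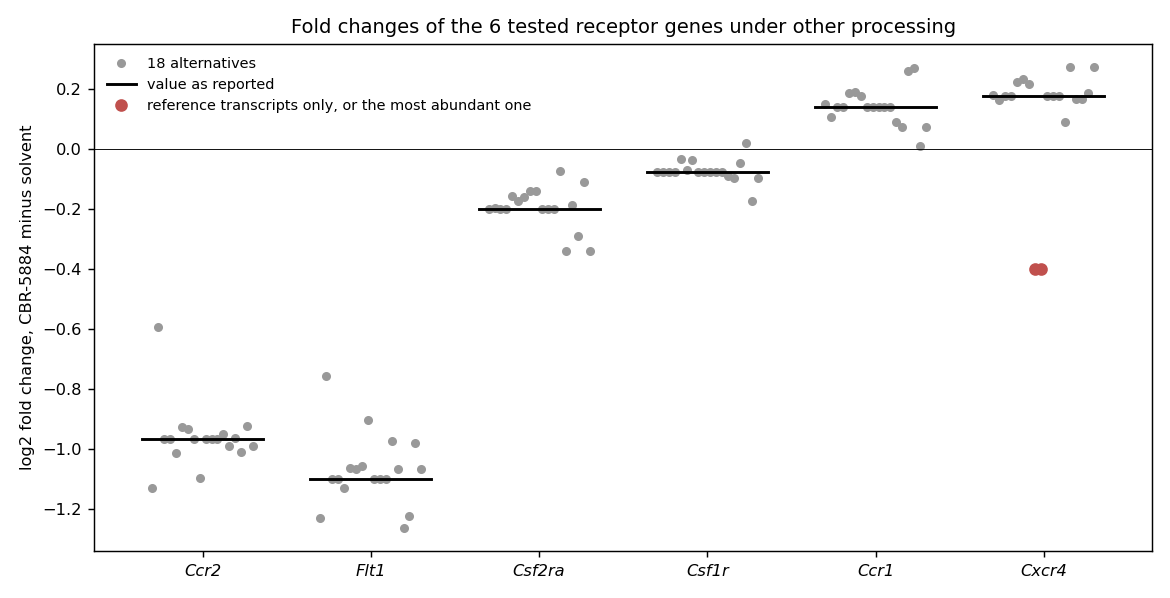
Log2 fold change (y axis, CBR-5884 minus solvent) of the 6 tested receptor genes as reported (bar) and under 18 other ways of processing (points); red marks Cxcr4 with reference transcripts only or the most abundant one. Ccr2 and Flt1 range from -1.13 to -0.59 and from -1.26 to -0.76, and Cxcr4 crosses 0 at the 2 red points.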

How the data were processed

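RNA was sequenced as single reads of 75 bp from directional libraries, per the labels' protocols. The authors deposited a Cufflinks transcript list for each library; the FPKM values were estimated by the authors separately for each library, as the deposited attributes show. Bowtie2, TopHat2 and Cufflinks with build mm10 (GRCm38) are named in the submitters' processing notes; versions and strandedness: not given in the sources used here. Depth was taken from the ratio of coverage to FPKM, and fragments per gene from coverage, transcript length and read length; they were not counted.

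Reference transcripts were assigned to genes by GENCODE M21 (99.5% matched per library), and assembled transcripts of at least 200 nt to the gene on their strand covering at least 50% of their exonic bases. Transcripts left out held 64.0% to 70.3% of summed FPKM but 8.55% to 10.2% of covered bases. Genes averaging 1 FPKM or more were fitted with limma 3.58.1 (R 4.3.3; variance trend, two-sided, Benjamini-Hochberg) on log2(FPKM + 1), which understates changes of low genes; 96 genes lacking a value in some library were left out. The fit was tested on simulated data, and 18 alternatives were run over pseudocount, filter, scaling, transcript assignment, variance trend, replicate block and each library left out. An FPKM of 0 can be a failed estimate.

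The receptor genes and gene lists were chosen with earlier results of these data known. Named genes are the 8 receptors, ligands with a mean of at least 1 FPKM, called list genes, the 3 largest fold changes of each pathway list, genes of the chromosome 9 cluster, the 5 genes most like Ccr2, and transcripts with at least 5% of a receptor's FPKM; other names were added after values were seen. Some genes of the lists are counted in them but not reported here.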

Additional observations from a re-analysis of the deposited data

How the results depend on the processing

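Over 18 alternatives the log2 fold changes of Ccr2, Flt1 and Csf2ra stayed negative and that of Ccr1 positive; Csf1r was positive only without solvent replicate 3 and Cxcr4 negative only with reference transcripts alone or the most abundant one. A change of filter or variance trend cannot alter a fold change, nor can settings for assembled transcripts where a gene has none. Of the 6 tested receptor genes 4 were negative, and 3 to 4 when 1 library was left out. The 24 genes called over all genes became 38 with no filter on low values, 9 with a mean FPKM of at least 5, 39 with reference transcripts only and 19 to 89 when 1 library was left out. Of genes with an unadjusted limma p below 0.05, 36.9% were higher with CBR-5884, but 54.7% on the TPM scale, 55.2% after quantile normalization and 52.1% with median ratios. Of the other genes of the recruitment pathways 0 were called, against 1 (Grb2) with reference transcripts only, 1 (Grb2) with the most abundant reference transcript, and 0 to 1 when 1 library was left out. The higher share of the Flt1 short form, 3.75 percentage points, was 3.35 to 4.08 with 1 library left out and -9.50 with assembled transcripts left out. With the replicate number as a block 3 genes were called, and the log2 fold change of Ccr2 was -0.99. Deviations from the group mean had r = 0.0701 and 0.0821 between same-numbered samples. With 2 solvent libraries, whose deviations mirror each other, this cannot show whether same-numbered samples share an animal or a batch. Depth limits Cx3cr1 and Ly6c2, and 2 solvent libraries limit every spread.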
